A study of Xenopus laevis with 12 samples.

Results

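Exposure of *Xenopus laevis* tadpoles to thyroxine (T4) was compared with the control in 8 brain samples, 4 from T4-exposed animals (samples 9 to 12) and 4 from control animals (samples 1 to 4). They were chosen by the treatment named in their labels, out of 12 samples in the series. The other 4 samples (5 to 8) came from tadpoles exposed to an amniotic mixture at 1x. These samples served here for the filter on low counts, the scaling, the estimate of the spread, the PCA and some classes of abundance, and as a reference. T4 was given at 10 nM. Eggs were exposed from just after fertilization for 8 days, until stage NF 47, and every group including the control received 0.01% DMSO. Each sample was a pool of 2 brains, so differences between the animals of a pool cannot be seen. Neither sex nor clutch is given for the samples.

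T4 is the main thyroid hormone (TH) released by the thyroid gland. It enters cells through membrane transporters and is converted by deiodinases into T3, which binds the TH receptors. These receptors sit on DNA and change the transcription of their target genes when T3 is bound, and amphibian metamorphosis, the remodelling of the tadpole brain included, is driven by this hormone. Many genes beyond the direct targets change as cells divide, mature or die, and RNA from a whole brain sums all of these. In such bulk samples fewer cells of a type and less RNA per cell cannot be told apart.

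Genes are listed in the deposited tables by number, and 0 of the 51041 numbers could be matched to a name in the RefSeq table at hand. TH receptors, deiodinases, markers of brain cell types and other named genes were therefore not analysed here, and the brain origin of the samples could not be checked against markers. The response is described across genes by its breadth, direction, size, abundance and repeatability, with 4 genes given by number as examples. Between 10518396 and 11080269 reads per control sample and between 10614787 and 11582420 per T4 sample were counted on genes (exact two-sided permutation test over 70 splits, p = 0.2, n = 4 samples per group). Levels are given in CPM, the counts of a gene scaled to a common library total with TMM factors, a scaling that assumes most genes to be unchanged. No 2 samples of a group were copies of each other, with a chi-square per degree of freedom of 3.06 or more between counts. By the study's methods the 4 samples of a group came from 2 breedings, so they are not 4 separate clutches. The labels do not say which sample came from which breeding, and p-values measure the spread between these pools.

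The study's methods describe sequencing experiments at different time points with animals of 2 breedings, but the labels do not say which sample belongs to which. On component 2 of a PCA of all 12 samples, a first set (control samples 1 and 2, T4 samples 9 and 10) and a second set (control samples 3 and 4, T4 samples 11 and 12) lay apart. The first set scored from 12.9 to 15.7 and the second from −14.7 to −13.0. The mixture samples divided in the same way. The sets were thus read from these counts, and whether they are the breedings was not tested. T4 and control samples are balanced over the sets, and the T4 effect in each set rests on different samples.

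T4 altered a wide range of genes in the brain, with more genes raised than lowered. Of 27141 genes with enough counts, 6587 were differentially expressed genes (DEGs), 24.3% of those tested (edgeR's quasi-likelihood test in 1 fit of all 12 samples, Benjamini-Hochberg adjusted p-value under 0.05). Higher levels after T4 were found for 3998 genes (14.7% of those tested) and lower levels for 2589 (9.54%). In the same fit 9890 genes had an unadjusted p-value under 0.05. When the set described above was added as a factor, 8379 genes were called and 56.7% of them were higher. The median log2 fold change over all genes tested was −0.02, so the scaling placed the bulk of the genes at no change.

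**Figure D1:**
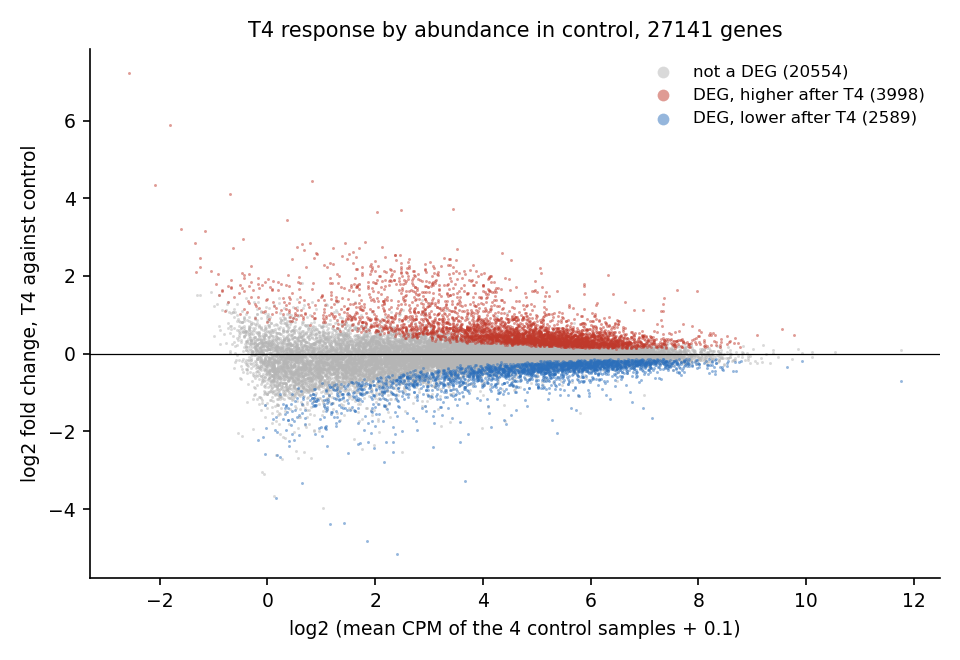
Log2 fold change of T4 against control for each of the 27141 genes tested, against the log2 of the mean CPM of the 4 control samples plus 0.1. Red points are the 3998 DEGs higher after T4, blue points the 2589 lower DEGs and grey points the other genes. The band of grey points narrows from left to right, and red points reach farther from 0 than blue points at middle abundance.

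The DEGs took up a visible part of the brain transcriptome. Genes called higher held 16.0% to 16.9% of the counts on tested genes in the control samples and 21.7% to 22.7% in the T4 samples. Genes called lower held 13.9% to 14.5% in the control samples and 10.6% to 11.1% in the T4 samples. These genes were selected on the same samples, so that the gap between the groups is a description. The mixture samples entered the choice of T4 DEGs only through the spread, the filter on low counts and the scaling. They held 16.0% to 16.9% and 13.8% to 14.5%, within or close to the control range.

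Most changes were small. Higher DEGs had a median log2 fold change of 0.47 and lower DEGs one of −0.41, and 10% of the DEGs lay beyond 1.38 among the higher and −1.05 among the lower. A log2 change between 0.25 and 0.5 was the most common class, with 2914 DEGs (44.2%). Another 845 DEGs changed by 0.25 or less, 1856 by 0.5 to 1, 805 by 1 to 2, 149 by 2 to 3 and 18 by more than 3. Direction shifted with size. Higher genes were 50.8% of the smallest class, 59.2%, 62.9% and 67.7% of the following classes and 80.5% of the class from 2 to 3. In the last class 11 of 18 genes were higher.

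A stricter test gave a stronger tilt towards higher levels. When a change had to exceed 1.5-fold beyond its error (edgeR's glmTreat, adjusted p-value under 0.05), 595 genes were higher and 73 lower, together 2.46% of the genes tested. At 2-fold, 266 were higher and 8 lower, together 1.01%. Without that test 676 higher and 296 lower DEGs had an estimate beyond 2-fold. The error differed between these directions. Higher DEGs beyond 2-fold had a median of 6.46 CPM in control and 19.7 CPM after T4, with a median standard error of 0.19 on the log2 scale. Lower DEGs beyond 2-fold had a median of 3.19 CPM in control and 1.20 CPM after T4, with a median standard error of 0.34. The lower genes were thus counted on fewer reads, and the part of this gap in the tilt was not tested.

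A large number of genes could be placed close to no change. For 15064 genes (55.5% of those tested) the 95% confidence interval of the fold change lay within 1.5-fold in either direction. Of these, 2715 were DEGs all the same, with changes that were small and well measured. The remaining genes were neither shown to be stable nor, for the most part, called.

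What could be seen depended on the abundance of the gene in control. DEGs were 8.38% of the 823 genes at 0.3 to 1 CPM, 9.32% of the 3411 genes at 1 to 3 CPM and 19.6% of the 5119 genes at 3 to 10 CPM. They were 26.6% of the 7066 genes at 10 to 30 CPM, 30.5% of the 8765 genes at 30 to 100 CPM and 32.7% of the 1952 genes above 100 CPM. The filter on low counts shaped the lowest classes. The 5 genes below 0.3 CPM, 821 of the 823 genes at 0.3 to 1 CPM and 1202 of the 3411 genes at 1 to 3 CPM passed it only with the help of samples from other groups, against 84 of the 5119 genes at 3 to 10 CPM. In the classes below 1 CPM, 67 of the 74 DEGs were higher, a direction that such a filter favours. From 3 CPM upwards the share called rose with abundance while the size of change of the DEGs fell. The median absolute log2 fold change of the DEGs was 0.86 at 3 to 10 CPM, and 0.50, 0.34 and 0.27 in the 3 classes above. Calling sets a lower bound on these sizes. The 5th percentile of the DEG sizes fell from 0.48 at 3 to 10 CPM to 0.17 above 100 CPM, so the fall of the medians is a description.

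Precision moved with both the share called and the size of the DEGs. The median standard error fell from 0.46 on the log2 scale at 0.3 to 1 CPM to 0.06 above 100 CPM. Only 1.85% of the genes at 1 to 3 CPM had an interval within 1.5-fold, against 86.2% at 30 to 100 CPM and 94.2% above 100 CPM. A change of moderate size was not detectable at this depth in most genes below 3 CPM, whereas for most genes above 30 CPM the interval left no room for a change beyond 1.5-fold. Changes over 2-fold were rare where genes were abundant, with 8 higher and 3 lower DEGs above 100 CPM. Duplicated reads had been reduced to 1 copy before counting, and the part of this step in the small changes of abundant genes was not tested. Among DEGs changed over 2-fold, the higher ones were most numerous at 3 to 10 CPM, with 281 higher and 107 lower. The lower ones were most numerous at 1 to 3 CPM, with 111 higher and 130 lower.

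**Figure D2:**
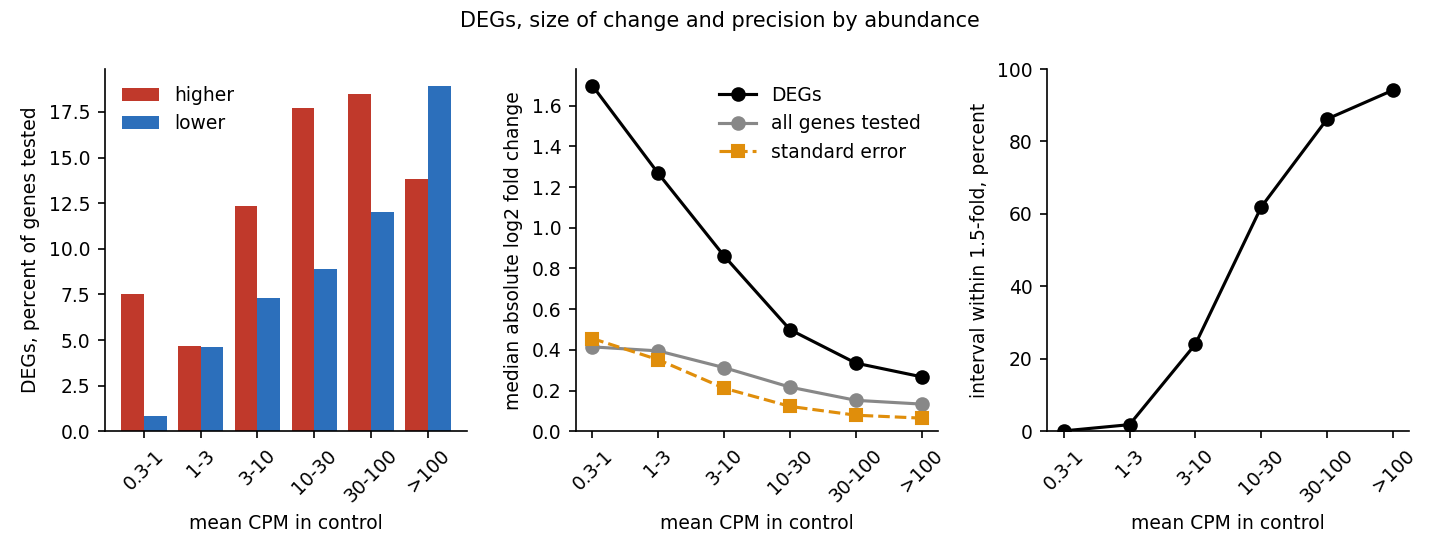
Genes grouped by their mean CPM in the 4 control samples, with the 5 genes below 0.3 CPM left out. Left, higher (red) and lower (blue) DEGs as percent of the genes tested in the class; middle, the median absolute log2 fold change of DEGs (black) and of all genes tested (grey) with the median standard error (orange); right, the percent of genes whose 95% confidence interval lay within 1.5-fold. From 3 CPM upwards DEGs became more frequent and smaller in size with abundance, while the standard error, which limits the sizes that can be called, fell. Nearly all genes at 0.3 to 1 CPM passed the filter through samples of other groups. With both sets together and classes drawn from the control samples, lower DEGs outnumbered higher DEGs only above 100 CPM.

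With both sets together, direction also followed abundance, in a way that depended on how the classes were drawn. Among the DEGs, the higher genes made up 66.5% at 10 to 30 CPM, 60.6% at 30 to 100 CPM and 42.3% above 100 CPM. At 1 to 3 CPM 160 DEGs were higher and 158 lower. Control samples enter both the abundance and the fold change here, so the classes were drawn again from the 4 mixture samples, a choice made after seeing the data. The shares were then 67.7%, 60.4% and 43.6%, and at 1 to 3 CPM 169 DEGs were higher and 174 lower. Above 100 CPM in these classes, lower DEGs were the majority in the second set only, with 207 higher and 448 lower. The first set had 303 higher and 183 lower DEGs there. At 0.3 to 1 CPM 56 DEGs were higher and 21 lower, in a class that the filter shaped as above. Classes were also drawn from the mean of all 12 samples, T4 samples included. The higher genes then made up 66.8% at 10 to 30 CPM, 63.5% at 30 to 100 CPM and 50.5% above 100 CPM. Above 100 CPM 347 DEGs were higher and 340 lower in these last classes. At 1 to 3 CPM 116 were higher and 190 lower, and at 0.3 to 1 CPM 19 were higher and 35 lower.

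The median gene at 1 to 3 CPM had a lower level after T4, while the class below depended on how it was drawn. At 1 to 3 CPM in the mixture samples, the median log2 fold change of T4 against control was −0.18 over 3402 genes and 35.7% of them had an increase of any size. At 3 to 10 CPM the median was −0.05 and at 10 to 30 CPM it was 0.02, with shares of 44.9% and 52.5%. At 0.3 to 1 CPM the median was −0.12 with mixture classes and 0.10 with control classes, of opposite sign. The median at 1 to 3 CPM was below 0 in both sets, at −0.19 in the first and −0.14 in the second. When the class was drawn from the control samples of the other set, it was −0.21 in the first and −0.15 in the second. These are medians over genes, which are not independent replicates, and the part of the filter in them was not tested.

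Fewer genes were detected after T4. More than 3 counts, the floor used here, were found for 29419 ± 189 genes in the control samples (SD, n = 4) and for 28923 ± 156 in the T4 samples. In the first set the control samples had 29668 and 29460 such genes and the T4 samples 28856 and 28740. The gap was smaller in the second set, with 29248 and 29300 against 29006 and 29091. The groups did not overlap (two-sided exact permutation test with 4 samples per group, p = 0.0286, which no split of 8 samples can undercut, and 0.0762 after adjustment over 8 library measures). The splits of this and of the other exact permutation tests took no account of the sets. T4 samples had the greater depth on average, so the difference does not follow the number of reads. With every library thinned to the same depth, a step added after seeing the data, the control samples had 29222 to 29495 genes above the floor and the T4 samples 28689 to 28872. The mixture samples had 29191 to 29382 and did not overlap with the T4 samples either (exact two-sided permutation test, p = 0.0286, n = 4 samples per group). A switch between absence and presence was seldom seen. Among all genes listed, 17 were above the floor in every T4 sample and at or under it in every control sample, and 45 showed the reverse.

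Reads that fell outside annotated genes also made up a smaller share in the T4 samples. They were 15.4% to 16.1% of all reads in the control samples and 13.9% to 14.8% in the T4 samples, a difference of −1.52 percentage points (exact two-sided permutation test, p = 0.0286, adjusted p = 0.0762, n = 4 samples per group). In the mixture samples they were 15.3% to 16.2%. Reads not aligned were 21.3% to 21.7% in the control samples and 20.3% to 24.9% in the T4 samples, which overlap. The part of the reads outside genes in the lower number of genes detected was not tested.

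**Figure D3:**
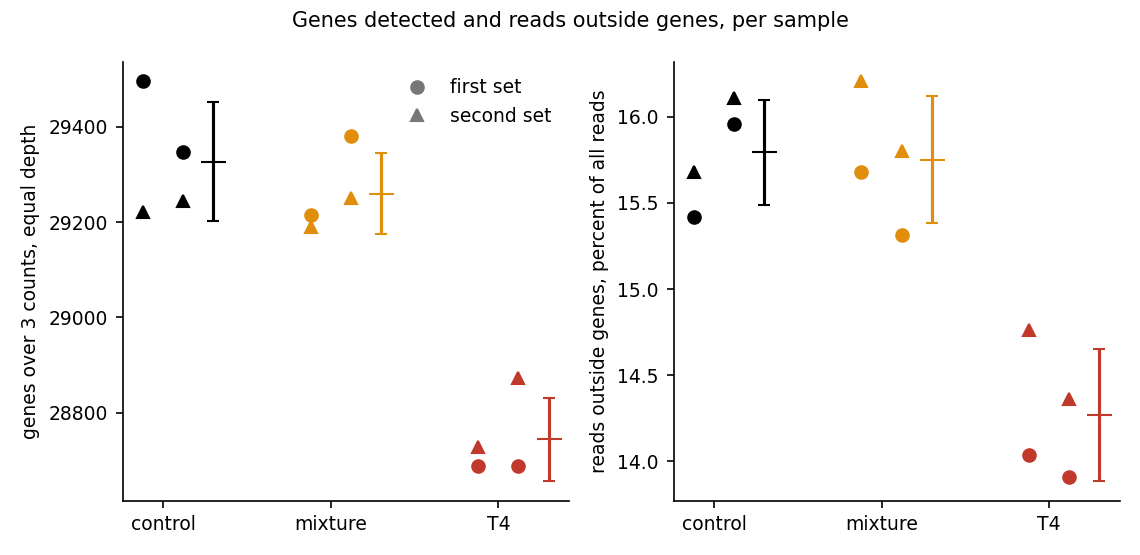
Left, genes with more than 3 counts after thinning every library to the same depth; right, reads outside annotated genes as percent of all reads. Each point is a sample (circles, first set; triangles, second set) and the bars are the mean and SD of 4 samples; both axes start above 0. The T4 samples, at 28689 to 28872 genes and 13.9% to 14.8% of reads, lie below all control and mixture samples.

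The shares of the counts held by 6 classes of abundance were compared. Groups did not overlap in 3 classes, and no adjusted p-value fell under 0.05. Genes at 10 to 30 CPM in the mixture samples held 13.9% to 14.3% of the counts in the control samples and 14.57% to 15.01% in the T4 samples. Those at 3 to 10 CPM held 3.19% to 3.40% and 3.41% to 3.68%. Genes at or below 1 CPM held 0.284% to 0.302% in the control samples and 0.248% to 0.275% in the T4 samples. Groups did not overlap in these 3 classes (exact two-sided permutation test, p = 0.0286 in each and 0.0571 after adjustment over 6 classes, n = 4 samples per group). No split of 8 samples gives a smaller p-value, so 3 such classes could not pass 0.05 after adjustment, and the adjusted values do not show equal shares. Genes above 100 CPM held 35.1% to 35.9% in the control samples and 33.9% to 35.2% in the T4 samples, an overlap (exact two-sided permutation test, p = 0.0571, adjusted p = 0.0857). Genes at 30 to 100 CPM, the class with the most counts, held 46.0% to 46.3% in the control samples and 46.0% to 46.4% in the T4 samples (exact permutation test, p = 0.257). For genes at 1 to 3 CPM the shares were 0.652% to 0.700% and 0.607% to 0.662% (exact permutation test, p = 0.114). The classes, chosen after seeing the data, come from the mixture samples, so levels in the mixture samples themselves are not compared here.

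The spread between replicates was alike in the groups. The median SD of log2 CPM over 4 samples was 0.17 in the control group and 0.16 in the T4 group, and 49.7% of the genes had the larger SD in the T4 group. The biological coefficient of variation common to all genes was 0.148 in the control group and 0.135 in the T4 group. Samples of the same set were closer to each other, with a chi-square per degree of freedom between counts of 3.06 to 4.12 in the 4 pairs within a set and of 5.01 to 6.92 in the 8 pairs across sets. As the sets were read from these same counts, this closeness is a description. The median SD pooled within sets was 0.13 in both groups, and part of its distance from the SD over 4 samples comes from the fewer degrees of freedom. The spread fell with abundance, from a median SD of 0.42 in control and 0.41 after T4 at 1 to 3 CPM to 0.09 in both above 100 CPM.

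Set against this spread, most DEGs were separated by their samples, as a choice by a test on these samples favours. In 5721 DEGs (86.9%) the lowest sample of one group lay above the highest of the other. Separation was more frequent among the higher DEGs, with 3649 genes or 91.3%, than among the lower DEGs, with 2072 genes or 80.0%. Over all genes tested, 25.9% had groups that did not overlap (15.9% with higher and 10.0% with lower T4 samples), and 1309 of these were not DEGs. Since DEGs were chosen by their difference over the spread, these counts are a description.

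Within the first set, T4 gave 4415 DEGs (16.3% of the genes tested), of which 3024 were higher and 1391 lower. Within the second set it gave 5708 (21.0%), with 3331 higher and 2377 lower (edgeR's quasi-likelihood test on groups by set in 1 fit of all 12 samples). DEGs of both sets numbered 2851, which is 64.6% of the DEGs of the first set and 49.9% of those of the second. Their direction was the same in 2840 genes, 2112 higher and 728 lower, and opposite in 11.

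Genes called in one set kept their direction in the other, in which they had not been chosen. Of the 4415 DEGs of the first set, 4216 changed in the same direction in the second (95.5%, 95% Wilson confidence interval 94.8% to 96.1%), and 3386 of those had an unadjusted p-value under 0.05 there. Of the 5708 DEGs of the second set, 5367 had the same direction in the first (94.0%, 93.4% to 94.6%), 3852 of them with an unadjusted p-value under 0.05. Over all genes tested the direction was the same in 73.4%. The intervals count genes as if they were independent, which they are not. Across the 27141 genes the log2 fold changes of the sets were correlated (Pearson's r = 0.60, Spearman's rho = 0.60), a description over genes that share libraries.

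**Figure D4:**
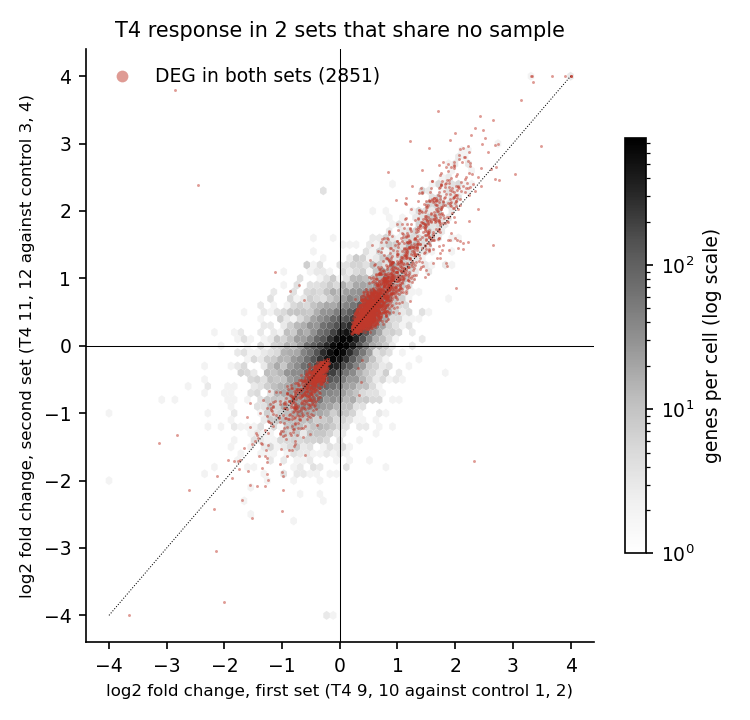
Log2 fold change of T4 against control in the first set (horizontal) and in the second set (vertical), which share no sample; values beyond 4 in either direction are drawn at the edge. Grey shading counts the genes per cell on a log scale, red points are the 2851 DEGs of both sets and the dotted line marks equal change. Of the red points, 2840 lie in the quadrants of equal direction and 11 in the others.

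Size was kept in part. DEGs of the first set had a median change of 0.52 on the log2 scale in that set and of 0.44 in the second. DEGs of the second set had a median of 0.54 there and of 0.38 in the first. Some loss is built into a choice by p-value, since the set that made the choice shows its genes at their largest. Higher genes lost less than lower genes. Higher DEGs of the second set went from 0.59 to 0.47 in the first and kept their direction in 96.3%, whereas the lower DEGs went from 0.49 to 0.27 and kept it in 90.8%. For the DEGs of the first set these values were 0.52 to 0.47 with 96.3% among the higher and 0.52 to 0.40 with 93.7% among the lower.

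Direction was shared in every class of size and abundance, to a differing degree. Of the DEGs of the first set, 94.3% of those changed by up to 0.5 on the log2 scale had the same direction in the second set, 97.7% of those from 0.5 to 1 and 92.4% of the 172 above 2. By abundance in the mixture samples, the share was 96.8% of 31 genes at 0.3 to 1 CPM and 87.1% of 194 genes at 1 to 3 CPM. It was between 95.9% and 97.2% in the classes from 3 to 100 CPM and 90.5% of 486 genes above 100 CPM (95% Wilson confidence interval 87.6% to 92.8%). DEGs of the second set showed 84.7% of 59 genes at 0.3 to 1 CPM, 90.2% at 1 to 3 CPM, 94.1% to 96.1% from 3 to 100 CPM and 87.8% above 100 CPM (85.1% to 90.1%). At 0.3 to 1 CPM, and in part at 1 to 3 CPM, genes could pass the filter on low counts through T4 samples of both sets. Such a filter favours agreement in direction, so the shares below 3 CPM are a description.

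The response could be read in single samples through genes chosen in the other set. The 3024 higher DEGs of the first set stood at a median of 0.46 and 0.48 above the control mean of the second set in T4 samples 11 and 12 (difference in log2 CPM). In the mixture samples 7 and 8 of that set they stood at −0.09 and −0.05. The 1391 lower DEGs of the first set stood at −0.38 and −0.40 in T4 samples 11 and 12 and at 0.11 and 0.04 in the mixture samples. In the other direction, the 3331 higher DEGs of the second set stood at 0.45 and 0.49 in T4 samples 9 and 10 and at 0.04 and 0.01 in mixture samples 5 and 6. The 2377 lower DEGs of the second set stood at −0.26 in both T4 samples of the first set and at 0.01 in both mixture samples. Each T4 sample thus showed the response, with sizes that lay close together within a pair.

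No gene passed the test of a difference of the T4 effect between the sets (0% of 27141 genes, edgeR's quasi-likelihood test of the interaction, smallest adjusted p = 0.103), while 2316 genes had an unadjusted p-value under 0.05, 8.53% of those tested. The median standard error of this difference was 0.21 on the log2 scale, so only differences well above this size were detectable in the typical gene. The count depended on the settings. Given 38850 genes without a filter on low counts, edgeR called 79 genes and DESeq2 called 60, with 2763 and 1271 at an unadjusted p-value under 0.05. All genes of both lists were also among the 27141 tested with the filter. The T4 effect had opposite directions in the sets in 60 of the 79 genes and in 44 of the 60. With a mean of at least 50 counts edgeR called 0. The lists shared 37 genes and differed in make-up. The T4 effect was the higher one in the second set in 22 of the 79 genes and in 2 of the 60. Their median abundance was 51.1 CPM in the list of edgeR and 180 CPM in that of DESeq2.

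The balance of higher and lower DEGs differed between the sets in more than one class, a difference that was not tested. At 1 to 3 CPM in the mixture samples, 84 DEGs of the first set were higher and 110 lower (43.3% higher), and 163 DEGs of the second set were higher and 123 lower (57.0%). Above 100 CPM in the mixture samples, 303 DEGs of the first set were higher and 183 lower, with 62.3% higher. In the second set 207 were higher and 448 lower, with 31.6% higher. The median log2 fold change of these 2119 genes was −0.002 in the first set and −0.07 in the second. The 58 genes with a lower effect in the second set in the DESeq2 list stood 0.15 and 0.24 above the control mean of their set in T4 samples 9 and 10 and at −0.41 and −0.29 in T4 samples 11 and 12. They also stood at 0.24 and 0.19 in mixture samples 5 and 6 and at −0.002 and −0.11 in mixture samples 7 and 8. Control samples 1 and 2 were at −0.13 and −0.21 relative to the mean of all 12 samples, and control samples 3 and 4 at 0.17 and 0.16. In these genes the control samples of the first set thus lay below those of the second, while T4 samples 9 and 10 lay above T4 samples 11 and 12 (at −0.03 and 0.08 against −0.23 and −0.15 on the same scale). As these genes were chosen for the difference, their levels are a description.

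The 4 example genes were taken by rule from 2709 DEGs that were called in both sets with the same direction, had groups that did not overlap and had more than 3 counts in every sample. Over all DEGs the log2 fold change reached 7.22 and −5.15, in genes that the rule left out. Among the genes it kept, the largest increase was that of gene69. It stood at 3.19, 1.62, 0.565 and 1.31 CPM in control samples 1 to 4 and at 48.0, 41.2, 24.9 and 34.2 CPM in T4 samples 9 to 12. The mixture samples, from 2.22 to 3.60 CPM, were near the control samples, and every T4 sample was far above both. Its log2 fold change was 4.21 in the first set and 4.96 in the second (4.45 ± 0.33 SE in all samples, quasi-likelihood test in edgeR, adjusted p = 8.25e-07).

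Among the genes kept by the rule, the largest decrease was that of gene19073, whose control level differed between the sets. It stood at 8.16 and 6.92 CPM in control samples 1 and 2 and at 3.01 and 1.59 CPM in control samples 3 and 4. After T4 it was at 0.639, 1.07, 0.782 and 0.890 CPM, with 7 to 11 counts per sample. The T4 samples were thus at a like level in both sets while the control samples were not, and the control sample closest to them was sample 4. The log2 fold change was −3.13 in the first set and −1.45 in the second (−2.53 ± 0.52 SE in all samples, quasi-likelihood test in edgeR, adjusted p = 0.00317). The difference between the sets did not pass the test (adjusted p = 0.508 from edgeR's interaction test). Mixture samples 5 to 8 had 3.10, 1.76, 1.04 and 0.854 CPM, and those of the second set reached into the range of the T4 samples.

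Among genes changed over 2-fold, the one most abundant in control with an increase was gene42841. It stood at 231, 262, 245 and 262 CPM in control samples 1 to 4 and at 705, 831, 713 and 792 CPM in T4 samples 9 to 12. The mixture samples, from 231 to 275 CPM, lay around the control samples. No sample of one group came near the other, and the log2 fold change was 1.64 in the first set and 1.57 in the second (1.60 ± 0.07 SE in all samples, quasi-likelihood test in edgeR, adjusted p = 2.36e-08).

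The most abundant with a decrease was gene681, at 149, 110, 164 and 142 CPM in control samples 1 to 4. It had 51.1, 54.6, 27.0 and 45.3 CPM in T4 samples 9 to 12, with T4 sample 11 the lowest. The mixture samples ranged from 97.3 to 142 CPM. The log2 fold change was −1.29 in the first set and −2.08 in the second (−1.67 ± 0.19 SE in all samples, quasi-likelihood test in edgeR, adjusted p = 2.63e-05), and the difference between the sets did not pass the test (adjusted p = 0.523 from edgeR's interaction test).

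**Figure D5:**
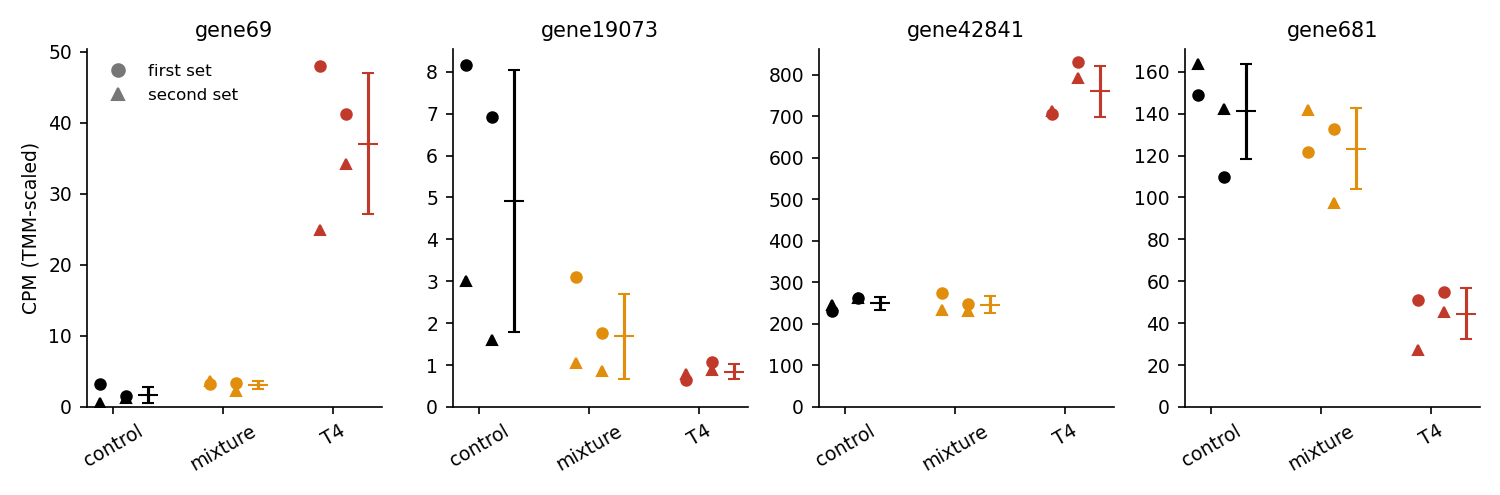
CPM of the 4 example genes in each sample of the control, mixture and T4 groups; circles are the first set, triangles the second set, and bars the mean and SD of 4 samples. T4 samples of gene69 (24.9 to 48.0 CPM) and gene42841 (705 to 831 CPM) lie above all other samples, those of gene681 (27.0 to 54.6 CPM) lie below all others, and those of gene19073 lie below the control samples but among the mixture samples of the second set.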

How the data were processed

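RNA from pools of brains was sequenced after a stranded mRNA library preparation. The authors deposited counts, whole numbers of reads per gene and sample without normalization. Before counting, they kept 1 copy of duplicated reads, trimmed 11 and 1 nucleotides, kept reads of 64 bp (cutadapt 1.15), mapped them with Bowtie2 2.2.4 to release 9.2 of the *X. laevis* genome and kept unique matches. Counting used HTSeq 0.9.1 in union mode, with a strand setting not given in the sources used here. Reads that match both copies (L and S) of a duplicated gene are lost, and genes that overlap on opposite strands are uncertain. The study's methods remove component 2 from a later table, and component 2 still split the samples in the counts used here. File labels of the control samples list 5′ trimming once more than those of the other groups; whether the step differed cannot be told apart from the group.

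From these counts, 5 totals that name no gene (38.3% to 42.2% of reads) were left out. Genes were filtered with filterByExpr (minimum count 10), scaled by TMM and tested with edgeR 4.0.16 (R 4.3.3), with Benjamini-Hochberg adjustment over all 27141 genes and a threshold of 0.05, 3 groups and no covariate (9 residual degrees of freedom). The fit of groups by set had 6. A standard error is the log2 fold change divided by the root of F. SDs of log2 CPM used a prior count of 2. The floor was 3 counts per sample, at most 0.291 CPM, which covers counting error only. Wilson intervals are at 95%. Alternatives were DESeq2 1.42.0, RLE size factors, other filters, the 8 samples alone, the set as a factor, component 2 as a covariate or removed, an adjusted p-value under 0.01, and each sample left out. The scripts were tested on simulated data. Figures used matplotlib 3.10.9.

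Named genes were, among DEGs called in both sets in 1 direction, without overlap of groups and with more than 3 counts in every sample, the largest log2 fold change in each direction (mean log2 CPM above 0) and the most abundant beyond 2-fold in each direction. The sets, rules and comparisons were chosen with earlier results of these data known.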

Additional observations from a re-analysis of the deposited data

How the results depend on the processing

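Single samples could not be paired because the sample numbers run from 1 to 12 and no number is shared between groups. Blocking by set was possible, and the main fit left the set out. With the set as a factor, 8379 genes were called, 56.7% of them higher, with 698 over 2-fold higher and 414 lower. Component 2 as a covariate gave 8379 genes and 406 over 2-fold lower, and its removal before DESeq2 gave 8856. Over 27 results, 234 of 269 values under alternatives counted as kept. This meant the same direction and a move within the spread, or within 1.5 times for counts. The spread was the SD of only 2 values, 1 from each set, and was 7.17 percentage points for the share of higher genes. A share of 55.6% with a mean of at least 50 counts, against 60.7%, thus counted as kept. With so wide a tolerance the tally is a description. For the 4 example genes, kept meant the same direction and an adjusted p-value under 0.05, whatever the size. They gave 19 of the kept values for gene19073 and 20 for each other gene, and were chosen as DEGs from these data. The number of T4 DEGs ranged from 5210 to 6491 when 1 sample was left out, the share of higher genes from 59.7% to 65.4%, the median of the lower DEGs from −0.46 to −0.41 and DEGs over 2-fold lower from 240 to 325. At an adjusted p-value under 0.01, 3652 genes were called, 71.2% of them higher, the medians were 0.57 and −0.47, and 142 genes were over 2-fold lower. The median of the lower DEGs was −0.44 without a filter and −0.37 with a mean of at least 50 counts. Genes over 2-fold lower numbered 97 with that filter and 445 with component 2 removed before DESeq2. In the first set, 60.6% of the DEGs were higher with that filter, against 68.5%, an alternative chosen after seeing the data. The thresholded test gave 595 and 73 genes in place of 1497 and 788 at 1.5-fold, and 266 and 8 in place of 676 and 296 at 2-fold. Agreement from the first to the second set was 96.8% with the 8 samples alone and 96.5% with the mean filter. From the second to the first it was 95.1% with the mean filter and 95.5% with DESeq2. Genes whose effect differed between the sets numbered 1 with the 8 samples alone, 79 without a filter and 60 with DESeq2, also without that filter, against 0; the cause was not tested. With abundance from the other set's controls, the ratio of the median absolute change at 1 to 3 CPM to that at 30 to 100 CPM was 2.84 for the second set, against 2.59, the median at 1 to 3 CPM was −0.15, against −0.20, and the ratio of the shares called was 0.265 for the first set, against 0.306. The median SD was 0.111 and 0.0987 within the control pairs and 0.104 and 0.113 within the T4 pairs, against 0.166 and 0.162 over 4 samples. A pair gives a lower median SD by its size alone, and the SD pooled within sets was 0.130 and 0.133. RLE and DESeq2 moved the median of all genes by −0.01. The 4 example genes passed the threshold under each alternative run for them, which were up to 20 per gene. gene19073 had too few counts for the mean filter and did not pass the thresholded test at 2-fold (adjusted p = 0.127 in edgeR's glmTreat).

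Depth limits what can be said of rare genes: at 1 to 3 CPM only 1.85% of the intervals lay within 1.5-fold. Gene names, cell types and the assignment of breedings to samples were not analysed here.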
